A study of Mus musculus with 4 samples.

Results

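The RNA levels of 40 genes of the actin cytoskeleton and of focal adhesions were examined in cultured 4T1-HM and 4T1-LM cells treated with the iron chelator deferasirox (DFX) or with its solvent alone. The set holds the actins, proteins that bind actin monomers or filaments, nonmuscle myosins, adaptors of focal adhesions, the tensins, the caveolins and the transcription factor Srf. Members were taken by gene symbol from a table of 49585 genes. All 40 were found, and 34 of them were among the 12669 expressed genes, those that reached an FPKM of 1 in any of the 4 libraries. FPKM counts the read pairs that fell on a gene and scales them to its length and to the size of the library. The members were chosen by function with their FPKM in these same libraries already known, so the values are given as a description and no test was made on them.

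4T1 is a mouse cell line of triple-negative breast cancer, and 4T1-HM and 4T1-LM are clones of it, each grown from a single cell, of high (HM) and low (LM) metastatic capacity. Each capacity is therefore represented by 1 clone. HM_DFX and LM_DFX were cultured for 48 h with 50 μmol/L of DFX, and HM_Ctrl and LM_Ctrl were the matching cultures with DMSO, which is also the solvent of DFX. There was 1 library per condition, so no difference below has a replicate check, and the intervals given cover counting error only. Levels were compared as the log2 ratio of FPKM + 1, which understates the change of low genes, and changes that reached 2-fold were called. For each gene the levels are given in the order HM_Ctrl, HM_DFX, LM_Ctrl and LM_DFX. The comparison of the clones with DMSO uses the same control libraries as the comparisons of DFX with DMSO, so these values are not independent of each other.

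Actin monomers assemble into filaments that are bundled, stabilised by tropomyosins and calponins, and pulled by nonmuscle myosin. At focal adhesions the filaments are tied to integrins, the receptors for extracellular matrix, through adaptors such as talin, vinculin and the tensins, and focal adhesion kinase (Ptk2) signals from there. Many genes of this machinery are transcribed by serum response factor (Srf), whose cofactors of the MRTF family are held back by free actin monomers. Srf binds a short A/T-rich element called the CArG box.

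The libraries held between 14363064 fragments in HM_DFX and 21883855 in LM_DFX, with a median of 407 to 695 fragments per expressed gene. The labelled origin was checked with marker lists. Of 12 epithelial markers 10 were expressed, with a summed FPKM of 1898 with DMSO and 629 with DFX in 4T1-HM, and 2447 and 1189 in 4T1-LM, and Krt5 was at 0. The larger part of this sum in each library was Krt8 and Krt18. In 4T1-LM Krt19 went the other way, from 46.4 to 103, and Cldn4 was level at 43.2. The sum was lower under DFX in both clones, as were most members below, and its part in those results was not tested. Of 10 fibroblast markers 2 were expressed, with sums of 3.66 to 6.50, and Lum, Pdgfrb and Thy1 were at 0. Among 6 smooth muscle markers Smtn alone was expressed, with sums of 62.8 to 163 that were higher under DFX, and Lmod1 and Actg2 were at 0. Skeletal muscle markers (1 of 8 expressed, sums of 0.336 to 3.29) and endothelial markers (0 of 5, sums up to 0.203) were close to 0. In the leukocyte list Cd68 alone was expressed (1 of 7, sums of 12.3 to 83.1, higher under DFX), while Cd3e and Adgre1 were at 0. In bulk libraries such as these, fewer cells of a type and less RNA per cell cannot be told apart.

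Promoters were read for 35 members from RefSeq windows of the mouse build GRCm38.p6, which cover 250 bases before and 50 bases after each start site. No window was listed for Actb, Tagln, Pxn, Ptk2 and Tns4. A CArG box was present in 7 of the 35 members, and in 488 of the 27025 genes with a window (1.81%). The 5 expressed members that carry it are shown because they include the calponin gene Cnn2, the gene with the second lowest value under DFX in 4T1-HM, and Srf itself, which was under 2-fold. The capitals mark the CArG box. It began at position -56 from the start site in Cnn2, -50 in Myl6, -90 in Actg1 and -227 in Vcl. Srf held 2 boxes, at -82 and -62. Myl6 had 2 windows, and its box lay in that of a start site further downstream. The Myl6 window at the annotated start of the gene held no box. The sequences, 5′ to 3′ on the strand of the gene, are from chr10:79988474-79988573 (plus strand, Cnn2), chr10:128493030-128493129 (minus, Myl6), chr11:120348556-120348655 (minus, Actg1), chr14:20929148-20929200 (plus, Vcl) and chr17:46556195-46556294 (minus, Srf).
Cnn2: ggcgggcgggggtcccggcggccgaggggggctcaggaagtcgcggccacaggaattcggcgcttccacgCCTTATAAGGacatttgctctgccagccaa
Myl6: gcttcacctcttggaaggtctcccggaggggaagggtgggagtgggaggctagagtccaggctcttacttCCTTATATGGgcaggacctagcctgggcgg
Actg1: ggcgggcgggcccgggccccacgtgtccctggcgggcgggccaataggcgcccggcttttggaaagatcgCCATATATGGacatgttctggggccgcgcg
Vcl: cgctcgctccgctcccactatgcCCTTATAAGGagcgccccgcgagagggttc
Srf: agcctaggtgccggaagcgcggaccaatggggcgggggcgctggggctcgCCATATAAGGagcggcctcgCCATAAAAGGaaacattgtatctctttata

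The other 2 members with a CArG box, Acta1 and Myl9, were not expressed. Only exact boxes were counted (CC, a core of A and T, then GG), and forms with a mismatch were not searched. A member without a box may thus hold such a form, or a box outside the window. Actb, Pxn, Ptk2 and Tns4 had no window and are in neither group. Within these limits the medians were similar. In 4T1-HM the median log2 change under DFX was -0.82 over the 5 expressed members with a box and -0.90 over the 25 without. In 4T1-LM it was -0.68 and -0.67. At least 2-fold lower under DFX were 2 of the 5 and 11 of the 25 in 4T1-HM, and 1 of the 5 and 7 of the 25 in 4T1-LM. The letters GGAATG, the core bound by the TEAD factors that work with YAP, were searched on both strands and were found in 11 of the 35 members (31.4%), against 16.6% of all genes with a window. A match of letters is a description of the window and does not show binding.

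DFX was accompanied by lower levels of most members in both clones. In 4T1-HM, 15 of the 34 expressed members were at least 2-fold lower and 0 were at least 2-fold higher. Over all expressed genes 12.4% were at least 2-fold lower and 6.93% higher in this comparison. In 4T1-LM, 10 members were at least 2-fold lower and 0 higher, beside 8.72% and 7.09% of all expressed genes. The median member changed by -0.86 on the log2 scale in 4T1-HM and by -0.67 in 4T1-LM, while the median of all expressed genes was -0.10 and -0.04. The members are mostly abundant genes, so a limit on the level was added after seeing the data: among the 5581 genes with a mean FPKM of at least 10 the shares at least 2-fold lower were 11.0% in 4T1-HM and 7.67% in 4T1-LM, beside 14 and 10 of the 32 members that passed that limit.

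**Figure D1:**
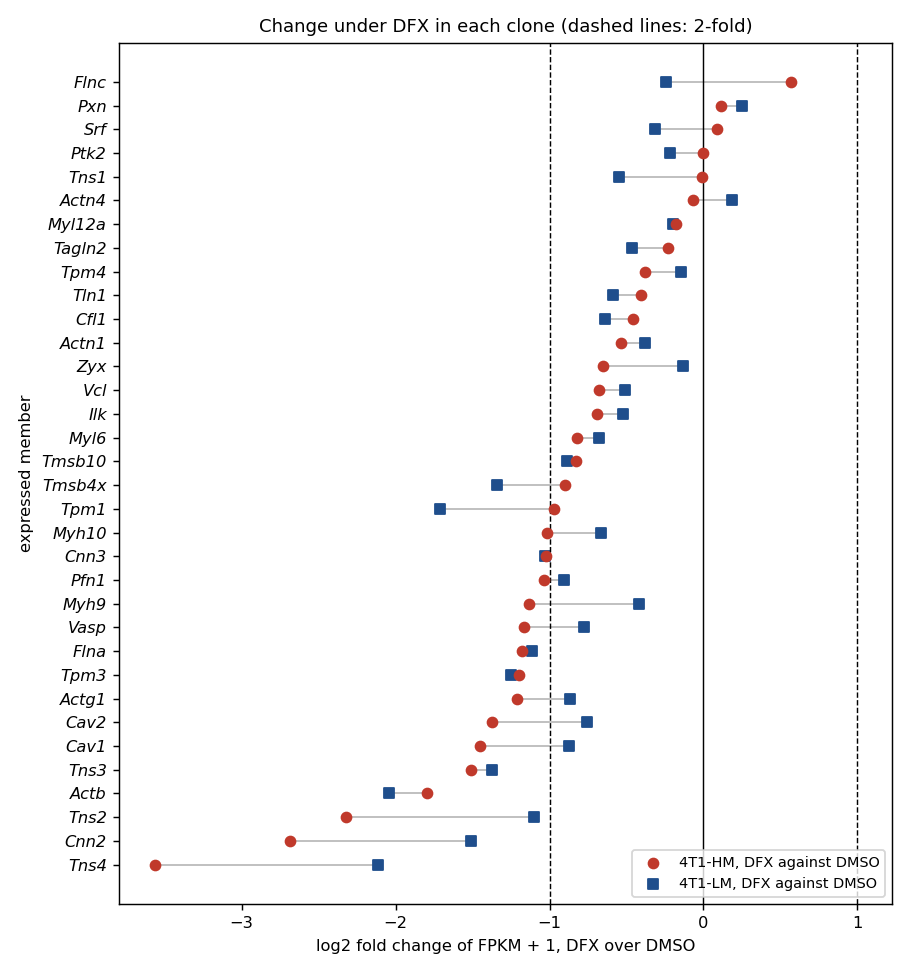
Change of each expressed member under DFX, as log2 of the ratio of FPKM + 1 (DFX over DMSO), for 4T1-HM (circles) and 4T1-LM (squares), with 1 library per condition and no error bars. Most points lie left of 0, 15 in 4T1-HM and 10 in 4T1-LM at or past the 2-fold line on the left, and Tns4, Cnn2 and Tns2 stand lowest in 4T1-HM.

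Below 0 in both clones were 30 of the 34 members, beside 42.4% of all expressed genes. At least 2-fold lower in both clones were 8 members, Actb, Tpm3, Cnn2, Cnn3, Flna, Tns2, Tns3 and Tns4, beside 5.32% of all expressed genes. Past 2-fold in 4T1-HM alone were 7 (Actg1, Pfn1, Myh9, Myh10, Vasp, Cav1 and Cav2), and in 4T1-LM alone 2 (Tmsb4x and Tpm1). Over all expressed genes, too, more were at least 2-fold lower in 4T1-HM (12.4%) than in 4T1-LM (8.72%). For all expressed genes, the share past 2-fold in 1 clone alone is the 12.4% or 8.72% less the 5.32% lower in both clones. The members closest to the 2-fold line in 4T1-HM were Myh10 (-1.01) and Cnn3 (-1.02) inside it and Tpm1 (-0.97) and Tmsb4x (-0.90) outside it. In 4T1-LM they were Cnn3 (-1.03) and Tns2 (-1.10) inside and Pfn1 (-0.91) and Tmsb10 (-0.88) outside. Scaling the libraries by the median ratio moved the median of all genes in 4T1-HM from -0.10 to 0.00 and the share of lower genes among all called genes from 64.1% to 53.1%. With that scaling the members at least 2-fold lower were 11 in 4T1-HM, without Pfn1, Cnn3, Myh9 and Myh10, and 9 in 4T1-LM, without Cnn3. Of all expressed genes 10.1% and 7.97% were then at least 2-fold lower.

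Together the members with countable fragments took 1.83% of all fragments with DMSO and 0.931% with DFX in 4T1-HM, and 2.25% and 1.20% in 4T1-LM. The set thus gave up close to the same proportion of its fragments in both clones, and it was the larger share of the library in 4T1-LM under either condition. Exact 95% binomial intervals of these shares were 1.83% to 1.84%, 0.926% to 0.936%, 2.24% to 2.25% and 1.20% to 1.21%.

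**Figure D2:**
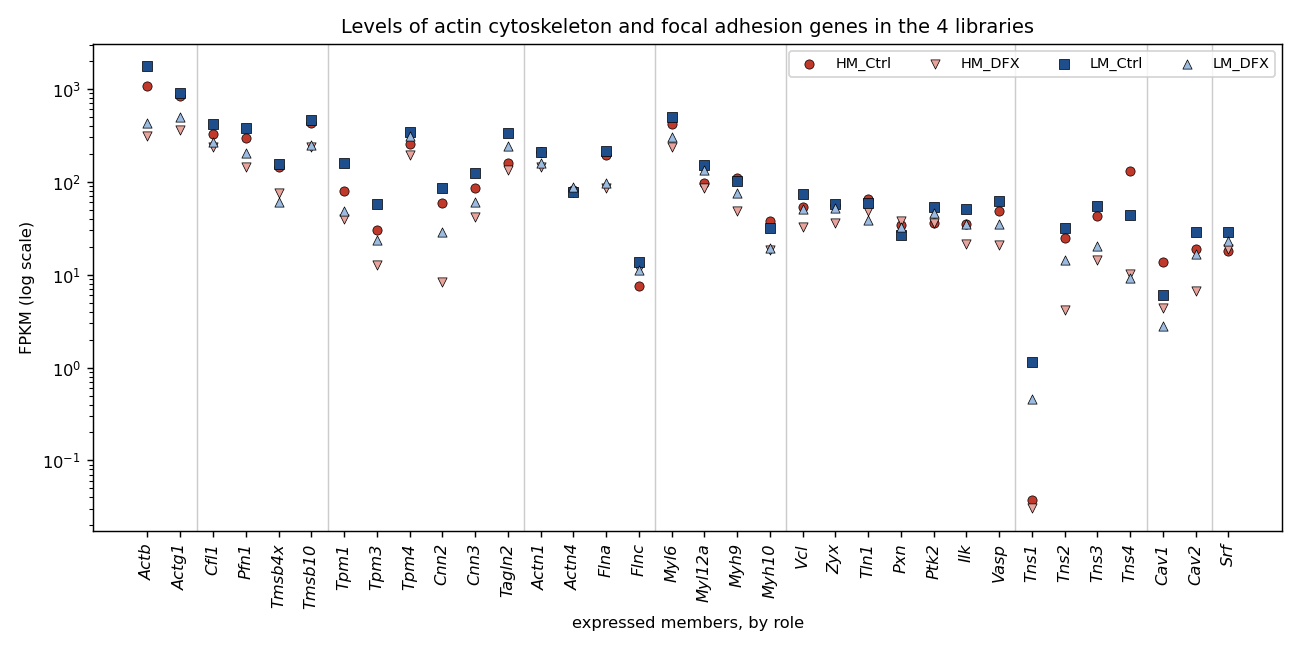
FPKM on a log scale of the 34 expressed members in HM_Ctrl (circles), HM_DFX (triangles pointing down), LM_Ctrl (squares) and LM_DFX (triangles pointing up), with vertical lines between roles and 1 library per point. Levels ran from 1759 for Actb in LM_Ctrl to 0.0304 for Tns1 in HM_DFX, and the DFX libraries lie below the DMSO library of the same clone for most members.

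The cytoplasmic actins were the most abundant members. Actb (ENSMUSG00000029580, chr5:142903115-142906754, minus strand, build mm10), which encodes beta-actin, had an FPKM of 1081 with DMSO and 310.3 with DFX in 4T1-HM, and 1759 and 427 in 4T1-LM. Its level was lower under DFX by -1.80 (log2) in 4T1-HM and -2.04 in 4T1-LM, and its rank among all genes by FPKM went from 23 to 132 and from 11 to 105. For Actg1 (ENSMUSG00000062825, chr11:120345690-120348542, minus strand), which encodes gamma-actin, the levels were 838, 362, 911 and 498, a change of -1.21 in 4T1-HM and -0.87 in 4T1-LM. Both DFX libraries were below both DMSO libraries for each of these genes. The ratio of Actb to Actg1 in FPKM was 1.29 in 4T1-HM and 1.93 in 4T1-LM with DMSO, and it was 0.857 and 0.856 with DFX, so beta-actin led with DMSO and gamma-actin with DFX. Of the 31-base words in Actb 23.6% also occur in another gene, and 40.2% in Actg1, so fragments of these genes may have been split or lost between copies in the authors' counting.

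Proteins that bind actin monomers or turn filaments over were lower as well. Profilin 1 (Pfn1), which loads monomers onto growing filaments, stood at 299 with DMSO and 146 with DFX in 4T1-HM, and 381 and 203 in 4T1-LM, with log2 changes of -1.04 and -0.91. Thymosin beta 4 (Tmsb4x), which sequesters monomers, stood at 143, 76.4, 155 and 60.5, and its change was larger in 4T1-LM (-1.34) than in 4T1-HM (-0.90). These members had their lowest level in different clones, Pfn1 in HM_DFX and Tmsb4x in LM_DFX. Cofilin 1 (Cfl1), which severs filaments, changed by less than 2-fold, from 326 to 238 in 4T1-HM and from 423 to 271 in 4T1-LM. The second thymosin, Tmsb10, went from 426 to 239 and from 464 to 251, and stayed 2.97 to 4.15 times as abundant as Tmsb4x in FPKM. Cfl1 and Tmsb10 share 22.6% and 32.0% of their 31-base words with other genes.

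Tropomyosins lie along actin filaments and stabilise them, and calponins and transgelins bind filaments in a related way. Tpm1 was at 78.9 with DMSO and 39.8 with DFX in 4T1-HM, and 160.0 and 48.2 in 4T1-LM, so the clones were 2-fold apart with DMSO (-1.01) and close together with DFX (-0.27). Tpm3 was at 30.2, 12.6, 57.6 and 23.6 and was more than 2-fold lower under DFX in both clones (-1.20 and -1.25), and 27.0% of its 31-base words occur elsewhere, nearly all in Tpm3-rs7. In contrast Tpm4, the most abundant tropomyosin, kept most of its level, with 255, 196, 346 and 313 and changes of -0.38 and -0.14. The ratio of Tpm1 to Tpm4 accordingly went from 0.309 to 0.203 in 4T1-HM and from 0.462 to 0.154 in 4T1-LM.

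Cnn2, which encodes calponin 2 and carries one of the CArG boxes shown above, had the second lowest value of the set in 4T1-HM. Its gene (ENSMUSG00000004665, chr10:79988584-79996062, plus strand) stood at 59.8 with DMSO and 8.43 with DFX in 4T1-HM, and 85.0 and 29.1 in 4T1-LM. The change was -2.69 in 4T1-HM and -1.51 in 4T1-LM, and from 2463 and 298 fragments the 4T1-HM ratio was -2.83 with an interval of -3.004 to -2.65. Cnn3 went from 85.1 to 41.4 and from 125 to 60.7, close to 2-fold in both clones, with 32.0% of its 31-base words shared. Transgelin 2 (Tagln2) stood at 157 and 134 in 4T1-HM and at 333 and 241 in 4T1-LM, so it was 2-fold apart between the clones with DMSO (-1.08) and lower under DFX by less than 2-fold in both (-0.23 and -0.46).

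Among the crosslinkers, filamin A stood apart from the alpha-actinins. Filamin A (Flna), which joins filaments into networks and binds integrins, was at 196 with DMSO and 86.3 with DFX in 4T1-HM, and 214 and 98.1 in 4T1-LM, with changes of -1.18 and -1.12 that were nearly equal. Alpha-actinin 1 (Actn1) was at 211, 145, 209 and 160.0, and alpha-actinin 4 (Actn4) at 81.8, 78.1, 77.7 and 88.3, both under 2-fold in every comparison. Filamin C (Flnc) was low in all libraries, with 7.49, 11.6, 13.5 and 11.3, and had the highest value of the set under DFX in 4T1-HM, 0.57, beside -0.24 in 4T1-LM.

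The heavy chains of nonmuscle myosin II were past 2-fold in 4T1-HM alone. Myh9, the heavy chain of myosin IIA, was at 109 with DMSO and 49.0 with DFX in 4T1-HM, and 102 and 75.8 in 4T1-LM, with changes of -1.14 and -0.42. Myh10, that of myosin IIB, was at 37.8, 18.2, 31.7 and 19.6, with changes of -1.01 and -0.67. The clones had similar levels of either gene with DMSO, 0.10 and 0.25 apart on the log2 scale, and under median-ratio scaling both 4T1-HM values were just short of 2-fold. Of the light chains, Myl6 went from 421 to 238 and from 492 to 307 (-0.82 and -0.68), in 4T1-LM about as far as Myh10, and Myl12a went from 96.6 to 85.2 and from 153 to 133 (-0.18 and -0.20). Myl12a shares 22.9% of its 31-base words with other genes, most of them with Myl12b.

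The 7 core adaptors of focal adhesions had a median change under DFX of -0.65 in 4T1-HM and -0.51 in 4T1-LM, and 1 of them, Vasp in 4T1-HM, passed 2-fold under DFX. Vasp, which promotes filament elongation at adhesions, was at 47.9 with DMSO and 20.8 with DFX in 4T1-HM, and 61.4 and 35.4 in 4T1-LM (-1.17 and -0.77). Vinculin (Vcl), which reinforces the link from talin to actin, was at 53.2, 32.8, 73.5 and 51.3. Zyxin (Zyx), a sensor of tension on filaments, was at 56.9, 35.8, 57.2 and 52.1, lower in HM_DFX than in the other libraries. Talin 1 (Tln1), which activates integrins, was at 65.1, 48.9, 58.8 and 38.8, and integrin-linked kinase (Ilk), a scaffold at integrin tails, at 35.1, 21.3, 51.1 and 35.3. Vcl shares 25.3% of its 31-base words with the overlapping gene Ap3m1. For Ilk 89.7% of the exon length is overlapped by genes on the opposite strand, whose highest FPKM was 15.2, so its level is uncertain if strand was not used in counting.

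Paxillin and focal adhesion kinase had values closer to 0. Paxillin (Pxn), a docking protein at adhesions, was at 34.6 with DMSO and 37.5 with DFX in 4T1-HM, and 27.0 and 32.4 in 4T1-LM, a change of 0.11 in 4T1-HM and 0.25 in 4T1-LM. With the FPKM as deposited it was the 1 expressed member above 0 in both clones. Ptk2 was at 36.3, 36.2, 53.6 and 46.0, and its change in 4T1-HM had a counting interval of -0.08 to 0.07 that includes 0, while in 4T1-LM it was lower under DFX (-0.22, interval -0.28 to -0.16).

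The tensins, which link integrin tails to actin, held the lowest value of the set in each clone. Tns4 (ENSMUSG00000017607, chr11:99065678-99089306, minus strand), a short tensin that lacks the actin-binding part, was at 132 with DMSO and 10.2 with DFX in 4T1-HM, and 43.5 and 9.29 in 4T1-LM. It was 2.99-fold apart between the clones with DMSO (1.58) and nearly level with DFX (0.13). The change under DFX was -3.57 in 4T1-HM and -2.11 in 4T1-LM. From 11422 and 759 fragments the 4T1-HM ratio was -3.69, with an interval of -3.80 to -3.58, or 12.9-fold lower, and from 3538 and 1051 fragments the 4T1-LM ratio was -2.23, with an interval of -2.33 to -2.13, or 4.68-fold lower.

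Tns2 (ENSMUSG00000037003, chr15:102102988-102116401, plus strand) was at 24.9 with DMSO and 4.18 with DFX in 4T1-HM, and 31.9 and 14.3 in 4T1-LM. With DMSO the clones were close (-0.35), and with DFX 4T1-HM was lower (-1.57), since the change was -2.32 in 4T1-HM and -1.10 in 4T1-LM. Tns3 was at 42.6, 14.3, 54.8 and 20.5 and changed alike in both clones (-1.51 and -1.38). As a consequence of these values Tns4 was 3.10 times Tns3 in FPKM in HM_Ctrl and 0.716 times in HM_DFX, and 0.794 and 0.454 times in 4T1-LM. Tns1 was nearly silent in 4T1-HM, with 10 fragments in HM_Ctrl and 7 in HM_DFX, beside 286 in LM_Ctrl and 162 in LM_DFX. It counted as expressed through LM_Ctrl alone (FPKM 1.14), so a difference between the clones was built into its selection. Its fragment ratio between the clones with DMSO was -4.93 (interval -6.004 to -4.03), and the FPKM + 1 scale gave -1.04.

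The caveolins, which coat membrane invaginations that flatten under tension, were past 2-fold under DFX in 4T1-HM alone. Cav1 (ENSMUSG00000007655, chr6:17306335-17341452, plus strand) was at 13.8 with DMSO and 4.43 with DFX in 4T1-HM, and 5.999 and 2.83 in 4T1-LM (-1.45 and -0.87). Its neighbour Cav2 (ENSMUSG00000000058, chr6:17281185-17289115, plus strand) was at 19.1, 6.74, 28.7 and 16.5 (-1.37 and -0.76). The genes differed in opposite directions between the clones: with DMSO Cav1 was higher in 4T1-HM (1.08) and Cav2 lower (-0.57), and the ratio of Cav2 to Cav1 was 1.38 and 1.52 in the 4T1-HM libraries and 4.78 and 5.85 in the 4T1-LM libraries. Cav1 in 4T1-LM also passed 2-fold when fragments were compared without the pseudocount (-1.09).

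Srf RNA itself changed little. It was at 17.9 with DMSO and 19.1 with DFX in 4T1-HM, and 28.9 and 23.1 in 4T1-LM, and was lower in 4T1-HM than in 4T1-LM with DMSO (-0.66). Its change of 0.09 in 4T1-HM had a counting interval of -0.03 to 0.21, and in 4T1-LM the change was -0.31.

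Between the clones with DMSO, most members were somewhat lower in 4T1-HM, and few passed 2-fold. At least 2-fold higher in HM_Ctrl were 2 members, Tns4 (1.58) and Cav1 (1.08), beside 3.65% of all expressed genes. At least 2-fold lower were 3, Tagln2 (-1.08), Tns1 (-1.04) and Tpm1 (-1.01), beside 3.15%, and Tpm3 (-0.91) lay just outside. Tns1 counted as expressed through LM_Ctrl alone, so its call was built into its selection. With a limit of 1 on the mean FPKM 2 members were lower, beside 2.66% of all genes that passed it. Below 0 were 26 of the 34 members, with a median of -0.35 beside 0.01 over all expressed genes. Both counts of members are small, and scaling to the 75th percentile left Tpm1 at -0.98, just short of 2-fold and no longer called.

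**Figure D3:**
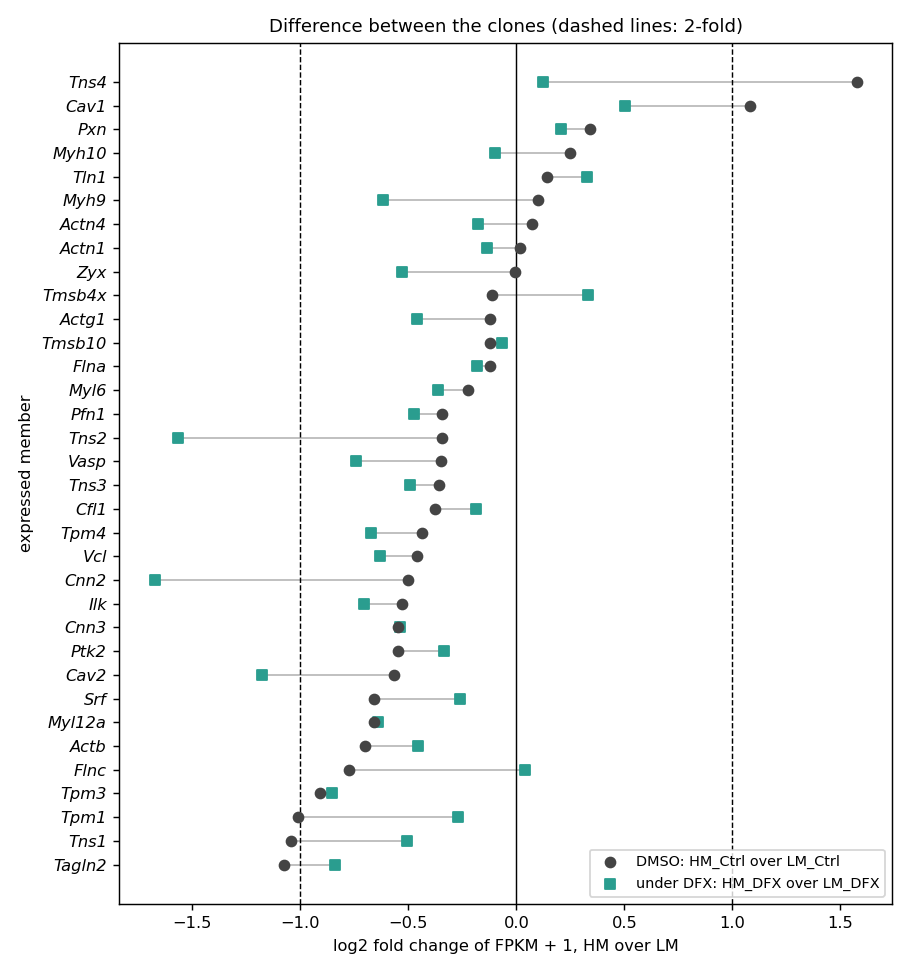
Difference of each expressed member between the clones, as log2 of the ratio of FPKM + 1 (HM over LM), with DMSO (circles) and with DFX (squares), 1 library per condition and no error bars. Most points lie left of 0. With DMSO Tns4 and Cav1 lie right of the 2-fold line and Tagln2, Tns1 and Tpm1 left of it, and with DFX Cnn2, Tns2 and Cav2 lie left of it.

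Under DFX no member was at least 2-fold higher in HM_DFX than in LM_DFX, and 3 were at least 2-fold lower, Cnn2 (-1.68), Tns2 (-1.57) and Cav2 (-1.18). Over all expressed genes 3.31% were higher and 5.05% lower. The median member was -0.46, against -0.05 for all expressed genes. Tns4 was not among the 3, because its levels met at 10.2 and 9.29.

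The response of 4T1-HM was then set against that of 4T1-LM as the difference of their log2 changes. Tns4 (-1.45), Tns2 (-1.22) and Cnn2 (-1.18) were lower in 4T1-HM by at least 2-fold beyond the change in 4T1-LM, and 0 members were higher by as much, beside 5.38% and 3.52% of all expressed genes. Flnc (0.81) and Tpm1 (0.74) came closest on the higher side. The members were otherwise spread around 0, with 20 below it, 14 above it and a median of -0.13 beside -0.08 over all expressed genes.

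The 6 members that were not expressed are mostly muscle forms. Acta1 (skeletal muscle actin) reached at most 0.272 FPKM, Cnn1 (basic calponin) 0.0835 and Tagln (transgelin) 0.350. Tpm2 was at 0.431 with DMSO and 0.0957 with DFX in 4T1-HM, and 0.503 and 0.0785 in 4T1-LM, on 4 to 23 fragments. Acta2 (smooth muscle actin) was listed at 0 in 3 libraries and at 0.143 in LM_Ctrl, and Myl9 (the light chain of smooth muscle and nonmuscle myosin) was listed at 0 in all 4. Of the 31-base words of Tagln 62.2% occur in other genes.

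Other genes of the same pathways were examined in 5 lists. The shares differed widely between lists. Genes of caveolae were at least 2-fold lower under DFX most often, with 4 of 5 in 4T1-HM and 3 of 5 in 4T1-LM, and their medians were -2.00 and -1.73. At least 2-fold lower were also 9 and 6 of 22 other crosslinkers and contractile proteins, and 1 and 0 were higher (medians -0.80 and -0.67). Of 34 other focal adhesion genes 8 and 7 were lower and 1 and 2 higher. The medians of this list, -0.14 and -0.08, lay close to the -0.10 and -0.04 of all expressed genes. Of 21 genes of SRF, YAP and their targets 5 and 8 were lower and 2 and 0 higher (medians -0.40 and -0.61). Of the genes of actin assembly 5 and 4 of 36 were lower (13.9% and 11.1%, close to the 12.4% and 8.72% of all expressed genes).

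**Figure D4:**
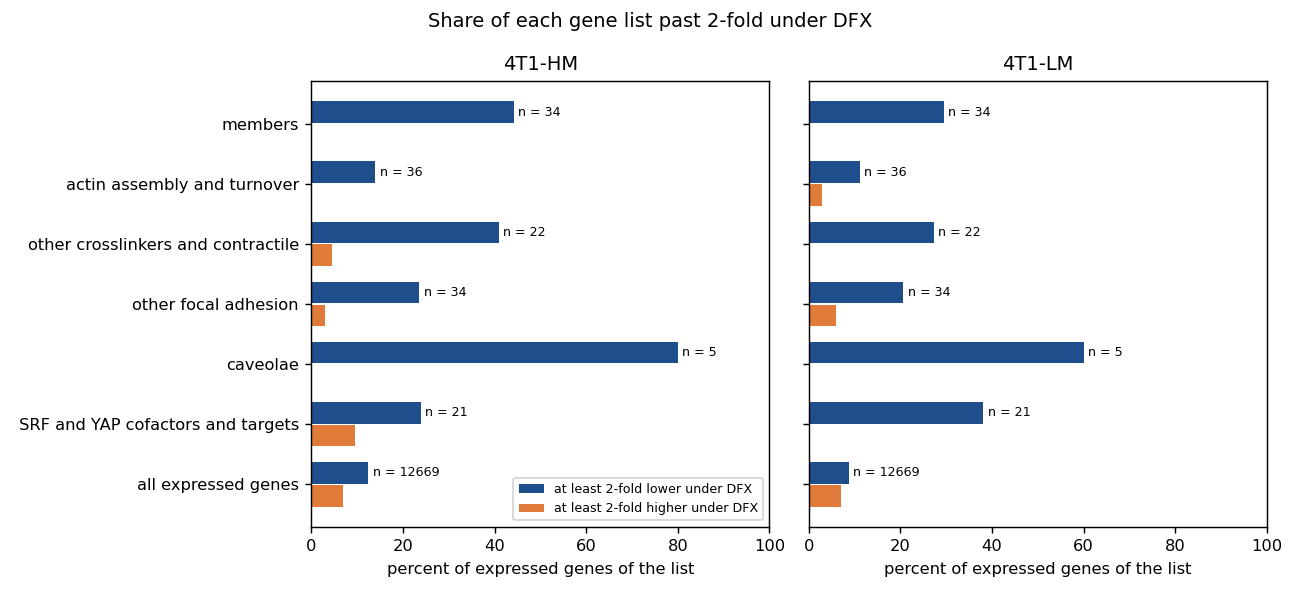
Percent of the expressed genes of each list that were at least 2-fold lower (blue) or higher (orange) under DFX, in 4T1-HM (left) and 4T1-LM (right), with the number of expressed genes beside each pair of bars. The members (44.1% and 29.4% lower), the caveolae genes, the other crosslinkers, the other focal adhesion genes (23.5% and 20.6%) and the SRF and YAP genes (23.8% and 38.1%) stand above all expressed genes (12.4% and 8.72% lower), and the genes of actin assembly lie close to them.

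The caveola genes alongside Cav1 and Cav2 included Ehd2, an ATPase at the caveola neck, which went from 42.8 to 8.49 in 4T1-HM (-2.21) and from 57.2 to 13.2 in 4T1-LM (-2.04). Prkcdbp, a cavin of the caveolar coat, went from 70.7 to 13.5 in 4T1-HM (-2.30) and from 42.6 to 37.2 in 4T1-LM (-0.19). The cavin gene Sdpr went from 19.9 to 3.63 in 4T1-LM (-2.17), and Pacsin2, which bends membrane at caveolae, was under 2-fold in both clones (-0.08 and -0.17). Of the 5 expressed genes of this list, Ehd2, Sdpr and Ptrf were at least 2-fold lower under DFX in both clones and Prkcdbp in 4T1-HM alone. Among other crosslinkers, the filament bundler Fscn1 went from 94.6 to 35.3 and from 222 to 70.1 (-1.40 and -1.65). Lasp1, a LIM protein on actin filaments, went from 101 to 19.5 in 4T1-HM (-2.32) and from 118 to 44.4 in 4T1-LM (-1.39). The LIM protein Ajuba of adhesions and cell junctions went from 38.9 to 7.04 and from 63.4 to 13.5 (-2.31 and -2.16). In the assembly list the formin Fmnl1 went from 63.5 to 11.7 and from 37.8 to 14.8 (-2.34 and -1.29).

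In the assembly list Wasl (N-WASP), which activates the Arp2/3 complex, was higher under DFX, from 15.2 to 30.2 (0.94) and from 9.76 to 22.1 (1.10), past 2-fold in 4T1-LM alone.

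Targets of SRF and YAP held the lowest values among the genes named from these lists. Ankrd1, a target of YAP, went from 117 to 12.0 in 4T1-HM (-3.18) and from 127 to 19.8 in 4T1-LM (-2.63). Ctgf, a matricellular growth factor, went from 22.9 to 1.87 (-3.05) and from 103 to 2.75 (-4.79), and with DMSO it was lower in 4T1-HM (-2.12), as was its relative Cyr61 with 50.9 against 255 (-2.30). In this list 6 of 21 genes were at least 2-fold higher in the response of 4T1-HM minus that of 4T1-LM, beside 3.52% of all expressed genes. They were Cyr61, Ctgf, Egr1, Fos, Fosb and Junb and were named after their values were seen. The last 4 encode immediate early transcription factors. Junb, for example, went from 70.6 to 107 in 4T1-HM and from 137 to 45.3 in 4T1-LM, and Egr1 from 8.55 to 10.2 and from 14.6 to 4.22. Fos and Fosb were low with DMSO, at 0.939 and 2.09 in HM_Ctrl and 0.865 and 1.99 in LM_Ctrl. Of the members with a CArG box, Cnn2, Myl6, Actg1 and Vcl were lower under DFX in both clones, and Srf had values of 0.09 and -0.31. Lower in both clones were 30 of all 34 expressed members, with or without a box found, and whether a box played a part was not tested. Actb, Pxn, Ptk2 and Tns4 had no window, and other members may hold a box outside theirs.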

How the data were processed

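Poly(A) RNA of 4 cultures was made into directional libraries and sequenced. Per the labels, reads were processed with FastQC, Trimmomatic, HISAT2 and featureCounts on build mm10. Versions, the use of strand and the handling of multiply mapped reads are not given in the sources used here. The authors deposited FPKM per gene, without pooling, and these values were used as they stand. Each column was matched to its library by the labels. No count test was run, because 1 library per condition gives no spread.

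Computed here, with Python 3.11.15, numpy 2.4.6, pandas 2.3.3, scipy 1.17.1 and matplotlib 3.10.9, were log2 ratios of FPKM + 1 for 4 comparisons and the difference of the DFX responses. Fragments were recovered from FPKM with exon lengths of GENCODE M21, or with the shortest length giving whole numbers (within 0.02) in all libraries. Of the 12669 expressed genes 99.7% came out whole. Intervals of ratios and shares are exact binomial (Clopper-Pearson, 95%) on fragments without a pseudocount. Sequences of 31 bases were compared across genes, and sharing above 20% is named. The members, lists and motifs were chosen with earlier results of these data known. Members past 2-fold in any comparison, and those not expressed, were named with their values. From each of the other lists the 2 largest rises and falls could be named where the higher of the compared levels reached an FPKM of 10. Another pseudocount, other filters, scalings and thresholds, and fragment ratios were tried as alternatives. The calling, the intervals and the recovery of fragments were tested on simulated data. Results of 1 further gene list and of 1 marker are not reported here.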

Additional observations from a re-analysis of the deposited data

Results flagged for a closer look

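For 3 members the change under DFX had opposite signs in the clones. The response of 4T1-HM minus that of 4T1-LM was 0.81 for Flnc (0.57 and -0.24), 0.40 for Srf (0.09 and -0.31) and -0.25 for Actn4 (-0.07 and 0.18). With 1 library per condition the differences were not tested. The 4T1-HM value of Actn4 was 0.07 under median-ratio scaling, so the signs were then the same, and the counting interval of Srf in 4T1-HM includes 0.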

How the results depend on the processing

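Settings were changed one at a time. No called member changed sign under another pseudocount (0.1), other filters (none, or a limit of 1 on the mean FPKM), 2 other scalings or fragment ratios. At 1.5-fold, 8 members were lower in HM_Ctrl than in LM_Ctrl. Under DFX 22 were lower in 4T1-HM and 20 in 4T1-LM, beside 15 and 10 at 2-fold. In HM_DFX 11 were lower than in LM_DFX, and for the difference of the responses 2 were higher and 5 lower. At 4-fold these counts were 0 higher and 0 lower between the clones with DMSO, 3 lower under DFX in 4T1-HM, 2 lower in 4T1-LM, 0 lower in HM_DFX against LM_DFX and 0 lower for the difference. The shares of all expressed genes at 1.5-fold and 4-fold were not computed, so these counts have no background beside them. With the pseudocount of 0.1, 1 member (Tns1) was higher for the difference, and the median in 4T1-LM was -0.74. Without a filter the medians were -0.69 in 4T1-HM, -0.59 in 4T1-LM and -0.34 for HM_DFX against LM_DFX. Median-ratio scaling gave -0.73 in 4T1-HM and -0.38 for HM_DFX against LM_DFX, and kept 31 of the 36 calls of members. A mean FPKM of at least 10, added after seeing the data, left 1 member higher in HM_Ctrl than in LM_Ctrl. Filters, pseudocount and thresholds act by their construction. For the scalings the cause was not tested. Signs under median-ratio scaling turned for Actn4 and Ptk2 in 4T1-HM, Tmsb10 between the DFX libraries and Flna in the difference, all within 0.07 of 0, and with 75th-percentile scaling for Zyx between the clones with DMSO (-0.01 to 0.02). Leaving out a replicate was not possible with 1 library per condition. Depth limits Tns1 most, where 7 fragments left the 4T1-HM change between -1.92 and 1.25.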
